A study of Mus musculus with 8 samples.

Results

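Chemokines and their receptors were examined in whole pancreas of young mice of the NOD strain, which develops autoimmune diabetes. A gene counted as a member when its probe set carried 1 symbol beginning with Ccl, Cxcl, Xcl, Cx3c, Ccr or Cxcr followed by a number, and where a gene had several probe sets the brightest on average was read. This gave 38 of 8251 genes, 24 ligands and 14 receptors, from 43 probe sets. RNA came from pancreas of mice aged 3 weeks and was hybridised to 8 Affymetrix arrays, 2 for each of 4 groups, with pooled RNA that the labels describe as isolated 2 times from 6 animals each. All 4 groups share the NOD background. BDC2.5/NOD.scid carries both the BDC2.5 transgene, the rearranged T cell receptor of a CD4 T cell clone that reacts with islets, and the scid mutation, which blocks the joining of antigen receptor genes, so that T cells there carry the transgenic receptor alone. BDC2.5/NOD carries the transgene while other lymphocyte receptors can still be formed. NOD.scid carries the mutation without the transgene and keeps myeloid and natural killer cells while lacking mature T and B lymphocytes. NOD carries neither. The labels do not say if both arrays of a pair drew on 1 pool, so each p-value measures array-to-array spread that could be purely technical.

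Chemokines are small secreted proteins that steer leukocytes along gradients. They are named for the spacing of their first cysteines, as CC, CXC, CX3C and XC ligands, and act on receptors with 7 membrane passes that signal through inhibitory G proteins. In the pancreas of NOD mice they are known for drawing monocytes, macrophages, dendritic cells and T cells to the islets. Many CC ligand genes lie side by side on mouse chromosome 11 and many CXC ligand genes on chromosome 5, and some members of these clusters are induced by interferon gamma or by NF-kB.

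The 250 bases before the start site are shown for 5 ligand genes in RefSeq's GRCm38.p6, 5′ to 3′ on the strand of the gene. Ccl8, Ccl9 and Cxcl9 had the largest differences below, Ccl6 is the neighbour of Ccl9, and Cxcl10 lies near Cxcl9 and shares its receptor. Capitals mark any match, on either strand, to the gamma-activated site TTCNNNGAA, the interferon-stimulated response element GAAANNGAAA or the NF-kB consensus.
Ccl8 (chr11:82114935-82115184, + strand): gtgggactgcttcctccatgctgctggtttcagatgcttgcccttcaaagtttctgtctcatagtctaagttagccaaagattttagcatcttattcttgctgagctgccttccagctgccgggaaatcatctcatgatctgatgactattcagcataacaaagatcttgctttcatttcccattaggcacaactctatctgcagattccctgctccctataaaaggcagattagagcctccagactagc
Ccl9 (chr11:83578637-83578886, - strand): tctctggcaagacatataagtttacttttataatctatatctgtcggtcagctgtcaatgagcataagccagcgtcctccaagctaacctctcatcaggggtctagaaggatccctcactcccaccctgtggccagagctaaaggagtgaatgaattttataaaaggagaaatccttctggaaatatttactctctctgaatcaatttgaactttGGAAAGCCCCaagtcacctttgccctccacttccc
Ccl6 (chr11:83593088-83593337, - strand): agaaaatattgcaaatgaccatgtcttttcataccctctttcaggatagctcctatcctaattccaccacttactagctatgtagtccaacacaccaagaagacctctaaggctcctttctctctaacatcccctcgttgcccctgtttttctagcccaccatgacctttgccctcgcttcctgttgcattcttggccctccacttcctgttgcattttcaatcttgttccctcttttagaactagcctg
Cxcl9 (chr5:92328080-92328329, - strand): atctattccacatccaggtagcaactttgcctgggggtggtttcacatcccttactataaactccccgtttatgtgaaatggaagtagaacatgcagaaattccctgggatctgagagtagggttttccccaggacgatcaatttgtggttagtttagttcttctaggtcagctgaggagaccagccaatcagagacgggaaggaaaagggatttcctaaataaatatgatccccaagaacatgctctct
Cxcl10 (chr5:92348890-92349139, - strand): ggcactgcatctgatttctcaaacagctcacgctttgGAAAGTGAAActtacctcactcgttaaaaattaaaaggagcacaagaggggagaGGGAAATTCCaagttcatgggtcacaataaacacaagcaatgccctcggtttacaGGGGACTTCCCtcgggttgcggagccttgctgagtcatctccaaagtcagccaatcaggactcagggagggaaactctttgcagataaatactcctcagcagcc

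The window of Ccl9 held 1 NF-kB match, at bases -35 to -26, and those of Ccl8, Ccl6 and Cxcl9 held none of the 3 motifs, which says only that these letters are not in these windows. The window of Cxcl10 held an interferon-stimulated response element at -213 to -204 and NF-kB matches at -159 to -150 and -104 to -94, the second being 2 overlapping matches. A window was found for 30 of the 38 genes, with 32 windows in all, and for Ccl5 none was given. The NF-kB consensus was found in 8 of these 32 windows (25%) and in 7.25% of the 32851 windows of all genes. The gamma-activated site was in 4 of them (12.5%, against 7.02% of all windows) and the interferon-stimulated response element in 2 (6.25%, against 2.98%). A match is a description of the letters and shows no binding.

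The values were log2 expression values as deposited, with array medians of 4.24 to 4.30, and the 2 arrays of a group correlated at Pearson r of 0.9912 to 0.9961 across probe sets. Acinar genes read as pancreas should, with a mean log2 value of 11.88 to 12.15 over 7 digestive enzyme and granule genes on every array. The middle beta-actin control probe set divided the arrays into 3 high ones (BDC2.5/NOD.scid array 2, NOD.scid array 1 and NOD array 1, at 9.26 to 9.55) and 5 low ones (6.95 to 7.74). The BioB hybridisation control was at 7.02 and 7.06 on the BDC2.5/NOD arrays and at 5.89 to 6.45 on the others. This difference cannot be told apart from the group in any comparison that uses BDC2.5/NOD. The values carry no detection calls. Of the 38 members, 21 had a mean below that of the median probe set (4.27), 14 of them ligands and 7 receptors, and a difference in a dim gene may be understated.

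Across all arrays and groups, 6 members passed the threshold in at least 1 of 5 comparisons, which was a limma p-value below 0.05 after Benjamini-Hochberg adjustment over 12422 probe sets. They were 4 CC ligands (Ccl5, Ccl6, Ccl8 and Ccl9), 1 CXC ligand (Cxcl9) and 1 receptor (Cxcr5). The other 32, namely 19 ligands and 13 receptors, passed in none. The share of all probe sets that passed in at least 1 comparison was not computed. The count of 6 is therefore a listing, and shares are given below for each comparison. None of the 5 further probe sets of members with more than 1 probe set passed either, nor did any of 4 probe sets annotated to several genes of which at least 1 was a chemokine.

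**Figure D1:**
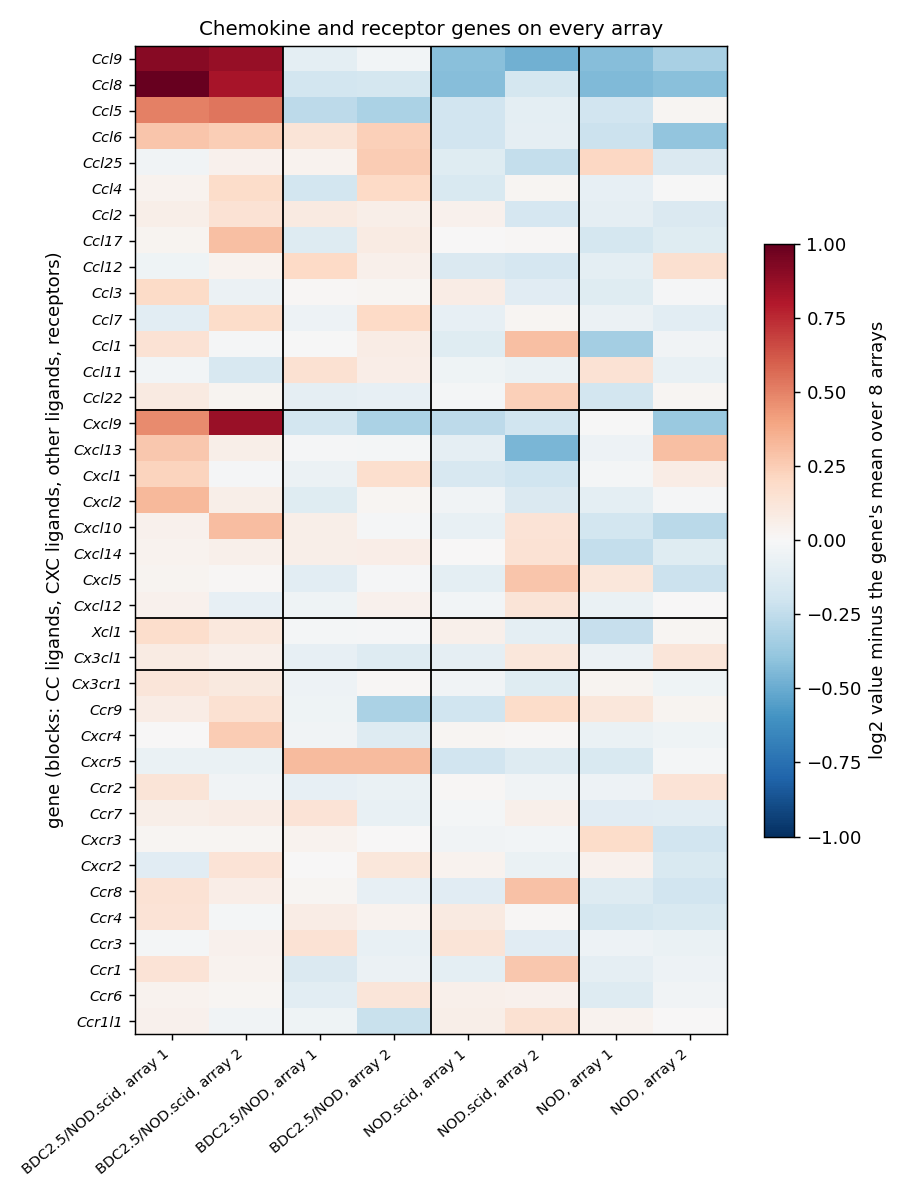
Each row is a chemokine or receptor gene and each column an array, and colour gives the log2 value minus the gene's mean over the 8 arrays, from blue (lower) through white to red (higher). The red cells of Ccl9, Ccl8, Ccl5 and Cxcl9 lie in the BDC2.5/NOD.scid columns, those of Ccl6 in the columns of both transgenic groups, and those of Cxcr5 in the BDC2.5/NOD columns.

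With the transgene in NOD.scid mice, 5 of 38 members rose, against a background of 2.37% of all probe sets higher, and all 5 were ligands. They were Ccl9, Ccl8, Cxcl9, Ccl5 and Ccl6, with differences of 0.40 to 1.34 on the log2 scale. No member fell, where 4.03% of all probe sets were lower. At an unadjusted p below 0.05, 8 members were higher and 0 lower, where 6.996% of all probe sets were higher and 10.4% lower. The median difference was 0.09 over the 38 members and -0.01 over all genes. A change in the number of cells of a type and a change in RNA per cell cannot be told apart in whole tissue.

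Ccl9, a ligand of Ccr1 made largely by macrophages, read 5.71 and 5.67 in BDC2.5/NOD.scid, 4.70 and 4.78 in BDC2.5/NOD, 4.38 and 4.32 in NOD.scid, and 4.37 and 4.47 in NOD. Both BDC2.5/NOD.scid arrays stood above the other 6, and both BDC2.5/NOD arrays lay between these and the arrays without the transgene. The difference from NOD.scid was 1.34 (SE 0.095, 2.53-fold, limma adjusted p = 2.07e-06). Ccl8, a monocyte attractant that in mice acts on Ccr8, read 6.15 and 5.98 in BDC2.5/NOD.scid, 4.97 and 4.98 in BDC2.5/NOD, 4.73 and 4.98 in NOD.scid, and 4.71 and 4.74 in NOD. Again the BDC2.5/NOD.scid pair stood apart, while the arrays of the other 3 groups lay between 4.71 and 4.98. Its difference was 1.21 (SE 0.108, 2.32-fold, limma adjusted p = 1.59e-05).

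Cxcl9, a ligand of Cxcr3 that is induced by interferon gamma and draws activated T cells, read 3.63 and 4.03 in BDC2.5/NOD.scid, 2.98 and 2.84 in BDC2.5/NOD, 2.90 and 2.96 in NOD.scid, and 3.15 and 2.79 in NOD. Both BDC2.5/NOD.scid arrays stood above the other 6, whose groups overlapped each other and which were dimmer than the lower quartile of probe set means (3.28). The difference was 0.90 (SE 0.145, 1.87-fold, limma adjusted p = 0.00212) and may be understated. Ccl5, a ligand of Ccr1 and Ccr3 made by activated T cells and other leukocytes, read 4.76 and 4.79 in BDC2.5/NOD.scid, 3.99 and 3.94 in BDC2.5/NOD, 4.07 and 4.16 in NOD.scid, and 4.07 and 4.28 in NOD. The pair in BDC2.5/NOD.scid was the only one above 4.28. Its difference was 0.66 (SE 0.104, 1.58-fold, limma adjusted p = 0.00182).

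Ccl6, a macrophage ligand of Ccr1, read 5.03 and 4.995 in BDC2.5/NOD.scid, 4.88 and 4.99 in BDC2.5/NOD, 4.56 and 4.66 in NOD.scid, and 4.54 and 4.36 in NOD. It was thus higher on all 4 transgenic arrays than on all 4 others. Its difference of 0.40 in NOD.scid (SE 0.102, 1.32-fold) passed narrowly, at a limma adjusted p of 0.0374. Without either array of BDC2.5/NOD.scid, BDC2.5/NOD or NOD.scid that p was 0.0684 to 0.167. The differences of Ccl5, Ccl8, Ccl9 and Cxcl9 passed in each fit that left out 1 array, at limma adjusted p of 0.027 or less. Within the high actin class, with 1 array against 1, the differences were 1.29 for Ccl9, 1.25 for Ccl8, 1.13 for Cxcl9, 0.73 for Ccl5 and 0.43 for Ccl6. Within the low class they were 1.39, 1.17, 0.67, 0.60 and 0.36 in the same order.

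**Figure D2:**
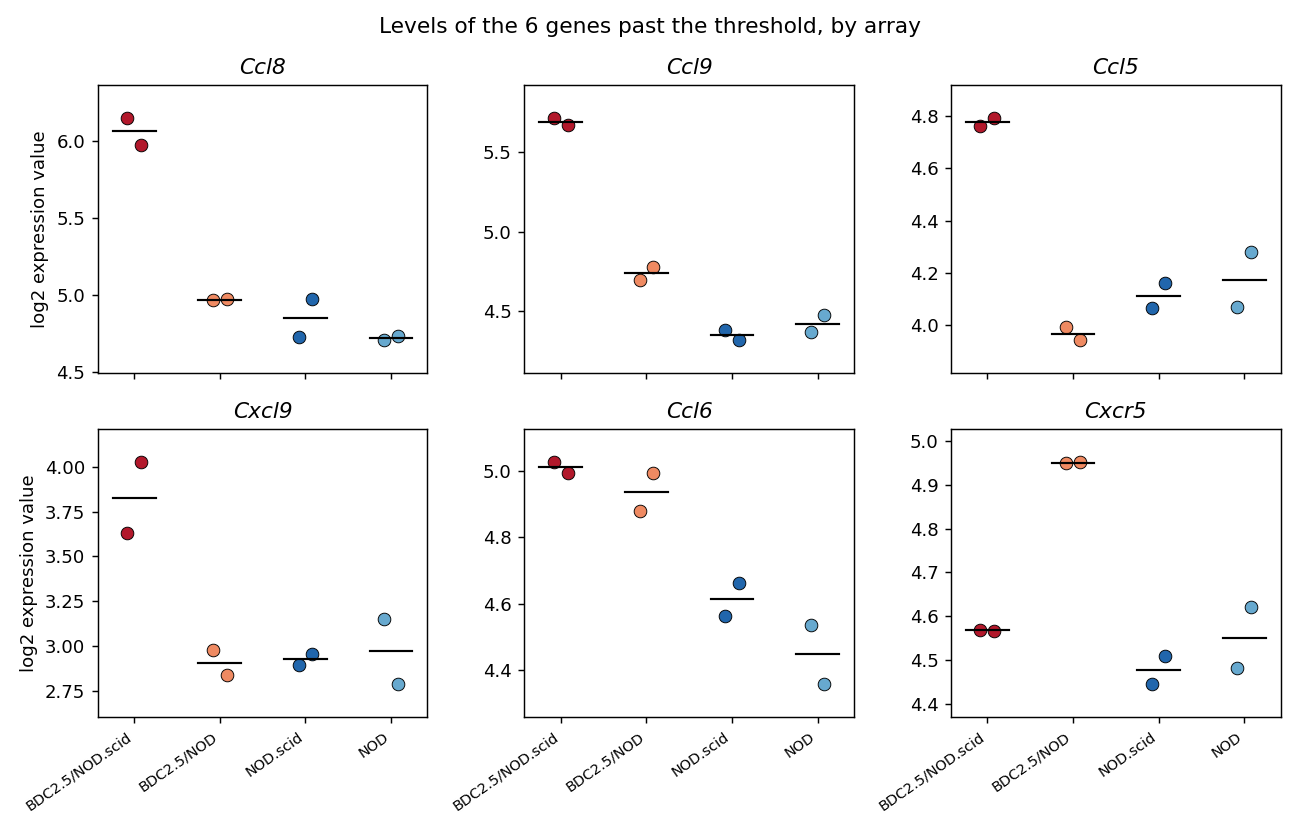
Log2 expression values of the 6 genes that passed the threshold in any comparison, 1 panel a gene with its own vertical range, with a point for each array and a bar for each group's mean. Ccl8, Ccl9, Ccl5 and Cxcl9 are highest in BDC2.5/NOD.scid, Ccl6 is higher in both transgenic groups (4.88 to 5.03) than in the others (4.36 to 4.66), and Cxcr5 is highest in BDC2.5/NOD (4.95 on both arrays).

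Of the 33 members that did not pass in NOD.scid, differences lay between -0.10 for Ccr1l1, a receptor-like gene beside Ccr1, and 0.44 for Cxcl13, the ligand of Cxcr5. Their 95% intervals ran at most from -0.36 to 0.75. Cxcl13 read 3.97 and 3.76 in BDC2.5/NOD.scid against 3.61 and 3.24 in NOD.scid, without overlap, at a limma adjusted p of 0.115. The ligands of Cxcr2, which attract neutrophils, were at 0.28 for both Cxcl1 and Cxcl2 (limma adjusted p = 0.211 and 0.204) and at -0.07 for Cxcl5. A second probe set of Cxcl1 was at 0.19. Cxcl12, the ligand of Cxcr4 that retains cells in tissue, was at -0.07 (95% interval -0.29 to 0.15), but its other probe sets were at -0.30 and -0.44 (limma adjusted p = 0.2 and 0.17), so its probe sets disagree in size.

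The genes that rose lie in clusters whose other members did not all pass. On chromosome 11, Ccl2, Ccl7, Ccl11, Ccl12, Ccl8 and Ccl1 follow each other with 0 other coding genes between them, and of these Ccl8 alone passed, at 1.21. Ccl2, Ccl7 and Ccl12, which attract monocytes through Ccr2, had differences of 0.17, 0.07 and 0.16. They were dim throughout, at 2.64 to 3.34 on all arrays, so a change near or below background may have gone unseen. Ccl11, which attracts eosinophils, was at -0.04 and Ccl1, a ligand of Ccr8 like Ccl8, at -0.02. A second probe set of Ccl1 was at 0.16 and did not pass either. After 25 other coding genes come Ccl5, Ccl9, Ccl6, Ccl3 and Ccl4, again with 0 between them. The first 3 in this order rose, by 0.66, 1.34 and 0.40, while Ccl3 and Ccl4, inflammatory ligands of macrophages and T cells, were at 0.09 and 0.18.

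On chromosome 5, Cxcl9 and Cxcl10 are parted by 1 coding gene. Cxcl10 read 2.79 and 3.06 in BDC2.5/NOD.scid, 2.80 and 2.73 in BDC2.5/NOD, 2.67 and 2.88 in NOD.scid, and 2.56 and 2.47 in NOD. The arrays of BDC2.5/NOD.scid, BDC2.5/NOD and NOD.scid overlapped, while both NOD arrays lay below all of them. The difference of Cxcl10 with the transgene was 0.15 in NOD.scid (95% interval -0.10 to 0.39, limma adjusted p = 0.593). It was 0.25 with the transgene in NOD and 0.26 for NOD.scid minus NOD (limma adjusted p = 0.204 and 0.324). The promoter window of Cxcl10 shown above held matches to 2 of the 3 motifs and that of Cxcl9 held none. The level of the dim Cxcl10 probe set may lie at background, which was not measured.

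**Figure D3:**
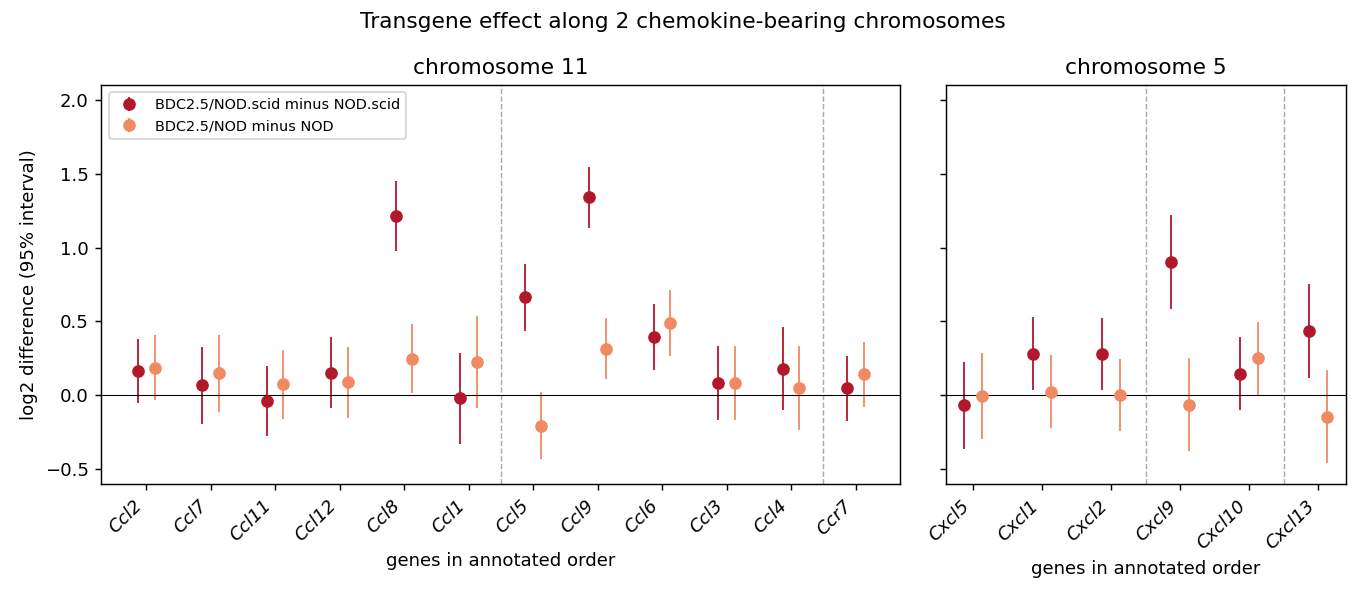
Log2 differences with 95% intervals for the ligand genes of chromosomes 11 and 5 (and the receptor Ccr7) in annotated order, in dark red for BDC2.5/NOD.scid minus NOD.scid and in orange for BDC2.5/NOD minus NOD, with dashed lines where more than 5 coding genes intervene. Ccl8, Ccl5, Ccl9, Ccl6 and Cxcl9 stand above 0 in dark red, and their neighbours lie between -0.07 and 0.44.

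With the transgene in NOD.scid, 0 of 14 receptors passed the limma threshold and 0 were at an unadjusted p below 0.05, with differences of -0.10 to 0.19. Cxcr3, the receptor of Cxcl9 on activated T cells and natural killer cells, read 4.52 and 4.52 in BDC2.5/NOD.scid, 4.54 and 4.50 in BDC2.5/NOD, 4.47 and 4.47 in NOD.scid, and 4.68 and 4.31 in NOD. The spread within NOD exceeded any difference between groups, and the difference in NOD.scid was 0.05 (95% interval -0.21 to 0.30). Ccr1, shared by Ccl9, Ccl6 and Ccl5, read 2.85 and 2.74 in BDC2.5/NOD.scid against 2.61 and 2.98 in NOD.scid, a difference of 0.00 (95% interval -0.26 to 0.26). Ccr8 was at 0.02 (95% interval -0.26 to 0.29) and Ccr3 at 0.01. Ccr2, which marks inflammatory monocytes, was at 0.06 (95% interval -0.17 to 0.29). Ccr1, Ccr2, Ccr3, Ccr7 and Cxcr4 all read between 2.56 and 3.34, where a change may be missed. Cx3cr1, the fractalkine receptor of macrophages, had the highest receptor difference (0.19, limma adjusted p = 0.304).

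The remaining ligands are mostly homeostatic or act on other cells, and none of them passed in any comparison. Ccl17 and Ccl22, ligands of Ccr4 made by dendritic cells, ranged over the 8 arrays from 4.59 to 5.07 and from 6.10 to 6.52, and their differences with the transgene in NOD.scid were 0.16 and -0.05. Ccr4, a receptor of regulatory and helper T cells, ranged from 5.03 to 5.34, and was at 0.01 in NOD.scid and 0.22 in NOD (limma adjusted p = 0.979 and 0.19). Ccl25, which draws T cells to gut and thymus through Ccr9, was at 0.18 in NOD.scid. Cx3cl1, the membrane-bound fractalkine, was at 0.06, with all its arrays between 4.85 and 5.10. Xcl1, made by activated T and natural killer cells, was at 0.16, and Cxcl14, an epithelial chemokine, at -0.03. Of the further receptors, Ccr6 was at -0.02, Ccr7, which guides cells to lymph nodes, at 0.05, Ccr9 at 0.12, Cxcr2 at 0.03 and Cxcr4 at 0.11.

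With the transgene in NOD mice, 2 members rose, Ccl6 and Cxcr5, where 3.91% of all probe sets were higher, and none fell, where 4.06% were lower. At an unadjusted p below 0.05, 7 members were higher and 0 lower, where 13.2% of all probe sets were higher and 10.4% lower. The median difference was 0.09 over members and 0.04 over all genes. Ccl6 rose by 0.49 (SE 0.102, 1.40-fold, limma adjusted p = 0.0118), and without BDC2.5/NOD array 1, BDC2.5/NOD array 2 or NOD array 2 its limma adjusted p was 0.0654, 0.136 and 0.0852. Cxcr5, which guides B cells and follicular T cells to its ligand Cxcl13, read 4.57 and 4.57 in BDC2.5/NOD.scid, 4.95 and 4.95 in BDC2.5/NOD, 4.45 and 4.51 in NOD.scid, and 4.48 and 4.62 in NOD. The BDC2.5/NOD pair alone stood apart, with a difference from NOD of 0.40 (SE 0.096, 1.32-fold, limma adjusted p = 0.0238). That p was 0.16 without BDC2.5/NOD array 1, 0.149 without array 2, 0.165 without NOD array 1, and 0.0572 with the actin control level as a term. The difference of Cxcl13 in NOD was -0.14 (limma adjusted p = 0.616).

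None of Ccl9, Ccl8, Cxcl9 and Ccl5 passed with the transgene in NOD. Ccl9 was at 0.31 (95% interval 0.11 to 0.52, limma adjusted p = 0.0641), with both BDC2.5/NOD arrays above both NOD arrays. Ccl8 was at 0.25 (limma adjusted p = 0.187), Cxcl9 at -0.06 (0.847) and Ccl5 at -0.21 (0.26). Read by the brightest probe set, the 36 members that did not pass lay between -0.25 for Ccr9, the receptor of Ccl25, and the value of Ccl9. Their 95% intervals ran at most from -0.55 to 0.53. The other probe sets of Cxcl12 were at -0.50 and -0.14 (limma adjusted p = 0.0802 and 0.521), and its brightest was at 0.03.

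The transgene effects in the 2 backgrounds share no array, and the interaction tests the difference between them. It passed for 4 members, all higher in NOD.scid, where 2.22% of all probe sets were higher and 2.496% lower. The transgene effect in NOD.scid minus that in NOD was 1.02 for Ccl9 (SE 0.134, limma adjusted p = 0.000828), 0.96 for Ccl8 (SE 0.152, limma adjusted p = 0.00327), 0.96 for Cxcl9 (SE 0.205, limma adjusted p = 0.0191) and 0.87 for Ccl5 (SE 0.147, limma adjusted p = 0.00521). For Cxcl9 the call was lost when BDC2.5/NOD.scid array 2, either BDC2.5/NOD array, NOD.scid array 1 or NOD array 1 was left out (limma adjusted p 0.0511 to 0.112). For Ccl6 it was -0.09 (95% interval -0.41 to 0.22) and for Cxcr5 -0.31 (limma adjusted p = 0.267), so no difference between backgrounds was shown for either. No member was lower by this test. At an unadjusted p below 0.05, 5 members were higher and 1 lower, where 6.54% of all probe sets were higher and 10.2% lower.

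**Figure D4:**
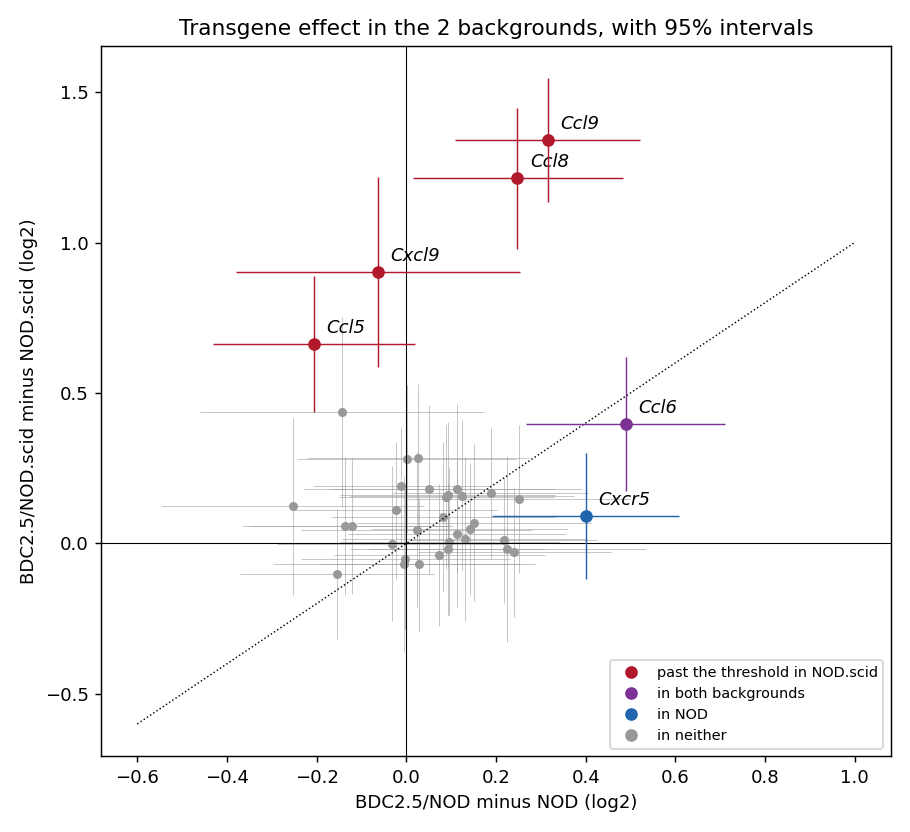
The transgene effect on each of the 38 genes in NOD.scid (vertical, log2) against that in NOD (horizontal, log2), with bars for 95% intervals and a dotted line where both are equal. Ccl9, Ccl8, Cxcl9 and Ccl5 lie far above the line, with vertical values of 0.66 to 1.34, Ccl6 lies near it at 0.40 and 0.49, Cxcr5 lies to the right, and the grey genes did not pass in either background.

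Among transgenic mice the scid mutation went with 4 higher members and 1 lower, where 2.99% of all probe sets were higher and 5.35% lower. BDC2.5/NOD.scid exceeded BDC2.5/NOD by 1.09 for Ccl8 (SE 0.108, 2.13-fold, limma adjusted p = 5.7e-05), 0.95 for Ccl9 (SE 0.095, limma adjusted p = 6.08e-05), 0.92 for Cxcl9 (SE 0.145, limma adjusted p = 0.00186) and 0.81 for Ccl5 (SE 0.104, limma adjusted p = 0.000437). These values share the BDC2.5/NOD.scid arrays with the transgene comparison in NOD.scid and are no separate evidence. Cxcr5 was lower by this comparison, at -0.38 (SE 0.096, limma adjusted p = 0.0282). Its p was 0.0901 to 0.179 when any of the 4 arrays was left out and 0.0584 with the actin control level as a term. Ccl6 did not pass (0.07, 95% interval -0.15 to 0.30).

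Without the transgene, NOD.scid and NOD differed in 0 members by limma, where 0.741% of all probe sets were higher and 1.61% lower. At an unadjusted p below 0.05, 3 members were higher and 1 lower, where 6.802% of all probe sets were higher and 7.43% lower, and no other test was run. By the brightest probe sets, differences lay between -0.40 for Cxcl13 (limma adjusted p = 0.221) and 0.28 for Ccl1, whose other probe set was at 0.01. Their 95% intervals ran at most from -0.72 to 0.59. The other probe sets of Cxcl12 were at 0.44 and 0.05 (limma adjusted p = 0.0835 and 0.918), and its brightest was at 0.08. For the genes named above they were 0.17 for Ccl6, 0.13 for Ccl8, -0.04 for Cxcl9, -0.06 for Ccl5, -0.07 for Ccl9 and -0.07 for Cxcr5. The 10 neutrophil markers had 6 members higher in this comparison, with a mean log2 level of 5.74 to 5.83 in NOD.scid and 4.94 to 5.07 in NOD. The neutrophil receptor Cxcr2 read 2.75 and 2.65 in NOD.scid against 2.76 and 2.57 in NOD.

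Genes of the pathways around the chemokines were read from lists that hold no member. Counts in these and the later lists stand beside the shares of all probe sets. With the transgene in NOD.scid 2.37% were higher and 4.03% lower, and in NOD 3.91% were higher and 4.06% lower. A count of 1 or 2 genes in a list is a listing only. Of 23 genes of interferon gamma signalling, 8 rose and 0 fell with the transgene in NOD.scid (median 0.21, against -0.01 over all genes), led by B2m, the MHC class I light chain, at 2.84, and by the immunoproteasome subunits Psmb8 and Psmb9 at 1.43 and 1.19. In NOD 1 rose, Irf9 at 0.36, with a median of 0.06 against 0.04. Of 26 genes of NF-kB signalling and inflammatory cytokines, 2 rose in NOD.scid, the inhibitor Nfkbia at 0.84 and the TNF receptor Tnfrsf1b at 0.51 (median 0.17). The 2 that rose in NOD were others, Nfkb2 at 0.57 and Relb at 0.50, subunits of the noncanonical branch (median 0.11). The interaction passed for 5 of the 23 interferon gamma genes, all higher in NOD.scid, where 2.22% of all probe sets were higher. B2m had the smallest p, with a value of 2.62 (limma adjusted p = 4.05e-07). Of the NF-kB genes named here the interaction passed for Nfkbia only (0.73, limma adjusted p = 0.0468). It was 0.41 for Tnfrsf1b, -0.47 for Nfkb2 and -0.30 for Relb (limma adjusted p = 0.238, 0.191 and 0.27), so no difference between backgrounds was shown for them.

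Of 23 genes for receptor signalling and migration, 1 rose and 1 fell in NOD.scid (median 0.06), where 2.37% of all probe sets were higher and 4.03% lower. Rgs2, which shortens G protein signals, was at 0.72 and the G protein subunit Gnb2 at -0.44, and 0 passed in NOD. Rgs2 was also higher in BDC2.5/NOD.scid than in BDC2.5/NOD, at 0.61, with Rac2, a GTPase of leukocyte migration, at 0.37. Of 11 atypical receptors and chemokine-cleaving proteases, 0 passed with the transgene in either background by limma. Ackr4, a scavenger of homeostatic CC chemokines, was 0.57 higher in BDC2.5/NOD.scid than in BDC2.5/NOD (limma adjusted p = 0.00478).

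Markers of some leukocytes moved with the ligands. Of 17 macrophage and monocyte genes, 9 rose and 0 fell with the transgene in NOD.scid (median 0.44), led by the protease Ctss at 2.61, lysozyme Lyz2 at 1.95, Cd14 at 1.13 and C1qc at 1.08. Their mean log2 level was 5.33 to 5.42 in BDC2.5/NOD.scid, 4.61 to 4.64 in BDC2.5/NOD, 4.64 to 4.70 in NOD.scid and 4.54 to 4.65 in NOD. It was thus highest in the group where Ccl8, Ccl9, Ccl5 and Cxcl9 were highest, and its part in their differences was not tested. In NOD 0 of the 17 passed by limma, with a median of 0.00. Ccl6 rose in that comparison, and a link to this list was not tested. Of 14 T cell genes, 0 passed in any comparison, with medians of 0.09 in NOD.scid and 0.08 in NOD. Their mean level was 4.68 to 4.69 in BDC2.5/NOD.scid, 4.61 to 4.66 in BDC2.5/NOD, 4.55 to 4.61 in NOD.scid and 4.55 to 4.56 in NOD. The list thus did not separate NOD.scid, which lacks mature T cells, from NOD. Its counts therefore cannot show if T cell numbers changed. The Cd3d difference was 0.37 in NOD.scid (limma adjusted p = 0.0662).

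Lists for other leukocytes were read the same way. No gene of 7 for natural killer cells or of 8 for dendritic cells passed in any comparison, with medians of 0.11 and 0.02 with the transgene in NOD.scid. Of 9 B cell genes, 0 passed with the transgene in NOD, with a median of -0.04. None passed between NOD.scid, which lacks mature B cells, and NOD either, so this list cannot show if B cell numbers changed. Its link to the Cxcr5 difference was not tested. Of 10 neutrophil genes, 5 fell with the transgene in NOD.scid, among them S100a8 at -2.39, S100a9 at -2.02 and Camp at -1.28. In that comparison none of the 3 measured ligands of Cxcr2 passed, and any link was not tested. Of 9 genes for lymphoid tissue stroma, 0 passed with the transgene in either background.

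Some genes of fibroblasts and of islets fell with the transgene in both backgrounds. Of 9 fibroblast and stellate cell genes, 5 fell in NOD.scid (median -0.42) and 7 fell in NOD (median -0.69), where Ccl6 and Cxcr5 rose. Of 8 islet genes, 5 fell in NOD.scid (median -0.98) and 5 fell in NOD (median -0.56). The mean log2 level of the islet list was 5.25 to 5.45 in BDC2.5/NOD.scid, 5.51 to 5.55 in BDC2.5/NOD, 6.20 to 6.22 in NOD.scid and 6.10 to 6.18 in NOD, and that of the fibroblast list was 5.89 to 5.97, 5.64, 6.18 to 6.28 and 6.28 to 6.39 in the same order. None of either list rose in these comparisons, and the part of these shifts in the chemokine differences was not tested.

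**Figure D5:**
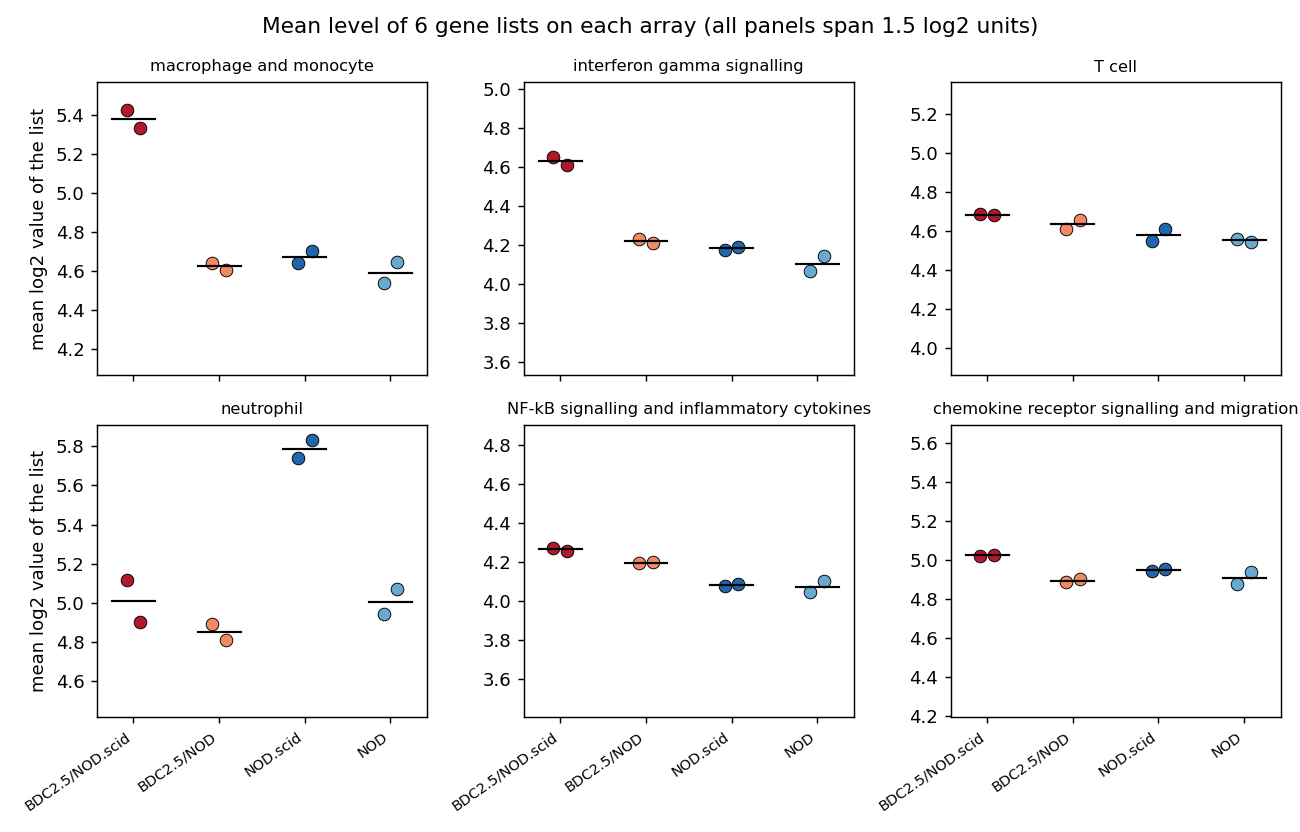
Mean log2 value of 6 gene lists on each array, with a point for each array and a bar for each group's mean; every panel spans 1.5 log2 units. The macrophage, interferon gamma, T cell, NF-kB and migration lists are highest in BDC2.5/NOD.scid, by the widest margins for the macrophage and interferon gamma lists. The neutrophil list is highest in NOD.scid (5.74 to 5.83), and the T cell list stays between 4.55 and 4.69 on all arrays.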

How the data were processed

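Per the labels' protocols, guanidinium (GITC) extraction was followed by routine Affymetrix target labelling, starting from roughly 10 ug. The authors deposited one table of 12488 probe sets on 8 arrays, whose values were taken as log2 because they ran from 2.02 to 13.78. The sources used here do not state the normalization, background correction or probe summary. The deposited log2 values were used unscaled. Tests ran on 12422 probe sets, without the 66 controls, of which 10833 had 1 symbol in the platform annotation, 396 had several and 1193 had none. No build was named with the values, so coordinates are those of the RefSeq promoter windows (GRCm38.p6), and gene order comes from the same assembly.

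One limma model (limma 3.58.1, R 4.3.3) estimated the 4 group means from the 8 arrays together, with 4 residual degrees of freedom, a prior worth 8.07 and a variance trend. Moderated tests were two-sided, with Benjamini-Hochberg adjustment across every probe set tested. Intervals are 95%. The number of arrays limits the precision. Members, gene lists and tests were chosen with earlier results of these data known. Named genes were Ccl5, Ccl8, Ccl9, Cxcl9, members past the threshold in any comparison, others by role, and up to 4 genes per list by smallest p. Lists for mast cells and eosinophils (11 genes) and endothelium (8 genes) were read too: 1 and 0 of their genes fell with the transgene in NOD.scid, likewise 1 and 0 in NOD, and 0 rose in either. Alternatives covered normalization, centring, a filter on dim probe sets, the prior, the arrays in the fit, a replicate block, array weights, the actin control, probe set averaging and each array left out. Tables and plots used pandas 2.3.3 and matplotlib 3.10.9.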

Additional observations from a re-analysis of the deposited data

Results flagged for a closer look

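The transgene effect differed between the backgrounds, by the test of the difference itself, for 4 of the 38 genes. The effect in NOD.scid minus that in NOD was 1.02 for Ccl9, 0.96 for Ccl8, 0.96 for Cxcl9 and 0.87 for Ccl5 on the log2 scale, all past the limma threshold. Both BDC2.5/NOD.scid arrays were above both NOD.scid arrays for each of these genes, as for 18 of the 38 members. This share was not computed over all probe sets, so the order of the arrays only describes the values. BDC2.5/NOD arrays were above NOD arrays for Ccl9 and Ccl8, overlapped them for Cxcl9 and lay below them for Ccl5. All 4 values use the BDC2.5/NOD pair, whose hybridisation control read higher than on the other arrays. The part of that difference was not tested.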

How the results depend on the processing

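The 17 alternatives were compared by the number of genes past the threshold and by the value of the 6 named genes. A total of 155 counts stayed within 1.5 times and 13 did not. Many of the 155 were 0 in both fits, and a fall from 5 to 4 genes also counted as within 1.5 times. The total is therefore no measure of stability. With dim probe sets left out, Ccl5 and Cxcl9 were not tested, and 3 genes were higher with the transgene in NOD.scid, 2 with scid among transgenic mice and 2 by the interaction. With the actin control as a term, 1 gene was higher with the transgene in NOD and 0 were lower with scid among transgenic mice. Leaving out 1 array at a time gave 0 to 2 genes higher with the transgene in NOD and 0 to 1 lower with scid among transgenic mice, with 0 in the first for either BDC2.5/NOD array. A lone array was then assumed to vary like the other groups. In these fits 4 to 5 genes were higher with the transgene in NOD.scid. For single genes, 465 values kept their call, 26 lost it and 3 gained it, and no called value changed sign. Values called in neither fit counted as kept whatever their sign, and some changed sign. Cxcl9 with the transgene in NOD, for example, ran from -0.25 to 0.12. Those gained were Ccl9 with the transgene in NOD (0.31), with dim probe sets left out, with array weights or with probe sets averaged (limma adjusted p = 0.0386, 0.0335 and 0.0452). Arrays of the same title number did not deviate together (correlations of -0.322 to 0.287), and with the replicate block 4 genes were higher with the transgene in NOD.scid, since Ccl6 did not pass (limma adjusted p = 0.066). The cause of these changes was not tested.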
